A study of Mus musculus with 4 samples.

Results

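Ccl3, Ccl4, Ccl5 and Xcl1 are chemokine genes that activated T cells and natural killer cells transcribe. These 4 genes, of 32285 in the RNA table, were chosen by name, and with them 18 of the 148283 open chromatin regions (peaks) in the ATAC table, namely every peak that overlaps one of the genes or lies within 10 kb of it. Chemokines are small secreted proteins that guide other leukocytes along a gradient. Ccl3, Ccl4 and Ccl5 draw T cells and myeloid cells, and Ccl3 and Ccl5 bind the receptor Ccr1. Xcl1 binds Xcr1, a receptor of the dendritic cells that present antigen to CD8 T cells. In effector and exhausted T cells these genes are read out after contact with antigen, and Ccl5 RNA is also kept at a steady level in memory cells.

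Marrow of C57Bl/6 mice was the source of the T cells, on day 14 after a transplant from C3H.SW donors, a pair of strains matched at the major histocompatibility complex. Recipients in the PT-Cy group were given 50 mg/kg cyclophosphamide, which is toxic to dividing cells, on each of days 3 and 4. Those in the alloBMT group received no cyclophosphamide, and both groups had the same graft of 5000000 marrow cells, 500000 CD4 T cells and 500000 CD8 T cells. Marrow T cells of both lineages were sorted after pooling 4 mice of a group, and RNA and ATAC were read from the same nuclei with the 10x Multiome platform, giving 1 library for each group and assay. The labels do not say which of the sorted T cells stem from the graft and which from the recipient. A single pooled library for each group leaves no replicates, so differences were not tested and have no p-values. The 95% intervals printed account for counting error and leave out variation between mice and between cells.

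The CD4 set, in the authors' own assignment of cells, held 284 PT-Cy and 926 alloBMT cells with 1264107 and 3027967 UMIs (unique molecules), a median of 3889 UMIs per PT-Cy cell and 2750 per alloBMT cell. ATAC counts in peaks numbered 1538967 in the PT-Cy and 6974362 in the alloBMT CD4 set, and 3117872 and 16605930 in the CD8 sets of 512 PT-Cy and 1865 alloBMT cells. RNA of CD8 cells was not analysed here. The T cell genes Cd3e, Cd3d, Cd3g, Trac, Trbc2 and Lck together were detected in 284 of 284 PT-Cy and 925 of 926 alloBMT cells of the CD4 set. Cd8a was at 0 in both libraries, whereas Cd8b1, the other CD8 chain, had a UMI in 32.0% of PT-Cy cells and 21.1% of alloBMT cells. Cd4, Cd40lg and Zbtb7b together were detected in 284 of 284 PT-Cy and 926 of 926 alloBMT cells. The part of Cd4 and Cd8a in the authors' assignment was not tested, so the Cd8a value of 0 is not read as a result. Transcripts of other blood cells stood higher in PT-Cy: the 4 globin genes summed to 841 CPM (UMIs scaled to a common total of the set) in PT-Cy against 209 CPM in alloBMT, and 8 neutrophil genes to 251 against 32.0 CPM.

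Ccl5, Ccl3 and Ccl4 lie in one chemokine cluster on mouse chromosome 11 (build GRCm38.p6), with 117.3 kb between Ccl5 (83525778 to 83530518) and Ccl3 (83647843 to 83649378). The annotated span of Ccl4 (83648624 to 83664683, 16060 bases) includes a predicted transcript and reaches into Ccl3. The 4 peaks near Ccl3 are therefore all among the 8 near Ccl4, and accessibility near these genes is given mainly for both together. Which peaks count as near or inside Ccl4 depends on this span. Xcl1 lies on chromosome 1 (164931644 to 164935522). Promoter sequences in RefSeq (GRCm38.p6) were matched for 2 of the 4 genes, Ccl3 and Xcl1. The 250 bases before each start are shown because each stretch lies wholly inside a peak whose accessibility is reported below, and both genes are on the minus strand, at chr11:83649379-83649628 for Ccl3 and chr1:164935523-164935772 for Xcl1. Capitals mark matches, on either strand, to motifs of factors that act in activated T cells.
Ccl3: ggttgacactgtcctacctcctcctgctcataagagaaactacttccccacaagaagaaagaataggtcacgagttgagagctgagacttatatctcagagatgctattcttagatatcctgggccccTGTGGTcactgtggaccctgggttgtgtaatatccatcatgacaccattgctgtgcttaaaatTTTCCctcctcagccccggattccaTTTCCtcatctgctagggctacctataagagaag
Xcl1: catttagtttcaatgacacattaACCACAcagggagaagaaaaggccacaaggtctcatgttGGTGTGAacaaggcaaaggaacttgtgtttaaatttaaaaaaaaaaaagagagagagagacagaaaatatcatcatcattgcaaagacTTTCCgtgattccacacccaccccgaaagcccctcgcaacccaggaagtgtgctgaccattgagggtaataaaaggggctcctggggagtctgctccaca

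The Ccl3 stretch held 2 matches to GGAAA, the core bound by NFAT factors, read as TTTCC on this strand, and 1 match to TGNGGT, the RUNX motif. The Xcl1 stretch held 1 match to GGAAA, 1 to GGTGTGA, a site of T-box factors, and 1 to TGNGGT. Neither stretch held TGANTCA (AP-1) or the frame of a kappa B site, and no 2 of the matches overlapped. Short motifs are common: of 32851 mouse promoter windows of this length, 55.6% held GGAAA, 40.1% TGNGGT and 45.8% the kappa B frame, against 6.75% for TGANTCA and 3.33% for GGTGTGA. These matches describe letters, not binding.

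The first comparison asks how chemokine RNA in marrow CD4 T cells differs after PT-Cy. Ccl3, Ccl4 and Ccl5 were all several-fold lower in PT-Cy, while Xcl1 was near the limit of detection in both libraries. Ccl5 had 1330 UMIs in PT-Cy and 15876 in alloBMT, which is 1052 CPM (996 to 1110) against 5243 CPM (5162 to 5325). That is 4.98-fold lower in PT-Cy (4.71 to 5.27). Ccl4 had 160 UMIs in PT-Cy and 1835 in alloBMT, or 127 CPM (108 to 148) against 606 CPM (579 to 634), 4.79-fold lower (4.07 to 5.66). Ccl3 had 129 UMIs in PT-Cy and 1121 in alloBMT, or 102 CPM (85.2 to 121) against 370.2 CPM (349 to 393), 3.63-fold lower (3.02 to 4.39). None of these pairs of intervals overlapped.

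Xcl1 had 28 UMIs in PT-Cy and 22 in alloBMT, or 22.2 CPM against 7.27 CPM, a log2 ratio of 1.61 (0.75 to 2.48). With fewer than 100 UMIs over both libraries it was too sparse to be called. Of alloBMT's 22 Xcl1 UMIs, 7 came from 1 cell, and without that cell the log2 ratio was 2.16 (1.21 to 3.17).

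A gene was called when it differed at least 2-fold and had at least 100 UMIs over both libraries. Of 6285 such genes, 181 (2.88%) were called lower and 310 (4.93%) higher in PT-Cy, and the median log2 ratio of all of them was 0.025. The 3 measurable chemokines were all called lower, with 8 genes below Ccl5, 10 below Ccl4 and 28 below Ccl3 in log2 ratio. edgeR's TMM scaling moves every log2 ratio by -0.13, which leaves all 3 calls in place and turns the count over all genes to 260 lower and 234 higher. In every subset of cells that was tried the ratios of Ccl3, Ccl4 and Ccl5 also stayed past 2-fold lower in PT-Cy, except that of Ccl3 within cluster 2, and no minimum of UMIs was applied to those subsets.

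**Figure D1:**
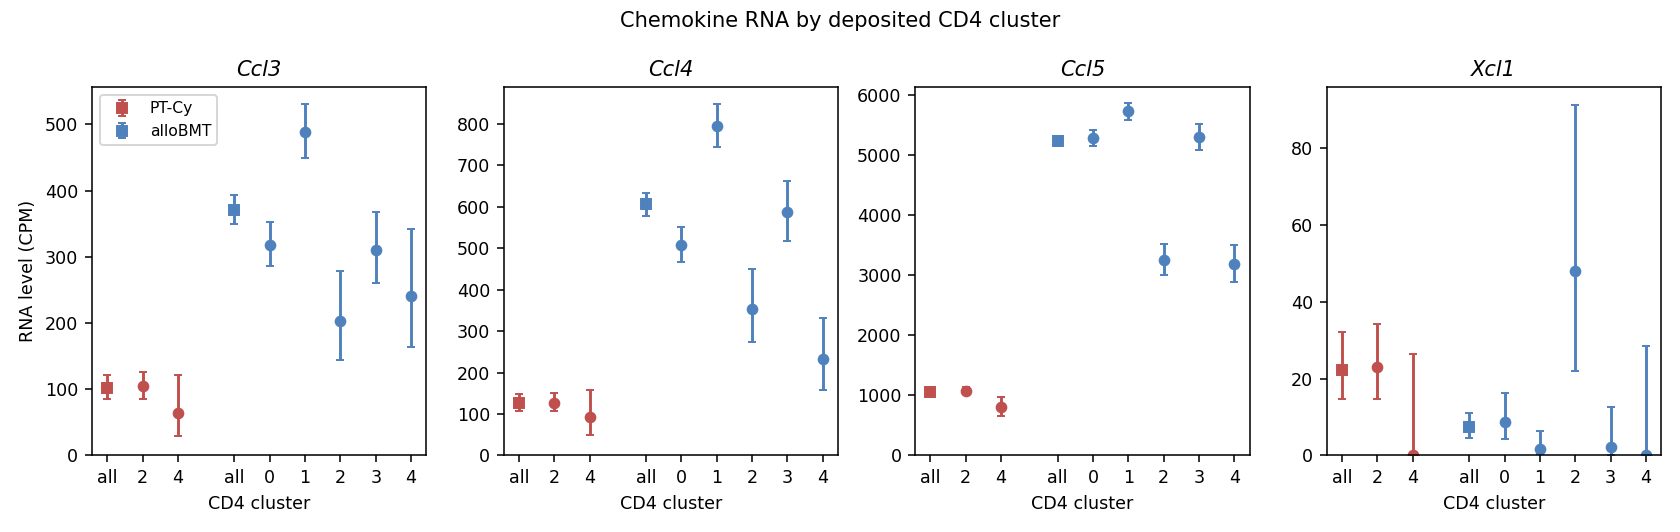
RNA level in CPM (vertical axis, from 0) of each chemokine in all CD4 cells (squares) and in the deposited clusters with at least 20 cells (circles), PT-Cy in red and alloBMT in blue, with exact 95% Poisson intervals. Ccl3, Ccl4 and Ccl5 were lower in both PT-Cy clusters than in every alloBMT cluster by point value, while the Xcl1 intervals of cluster 2 overlapped between the libraries.

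The authors' clusters held very different shares of each library, so levels were compared within the 2 clusters with at least 20 cells on both sides. Cluster 2, with 238 PT-Cy and 42 alloBMT cells, was rich in dividing cells on both sides: Mki67, a proliferation marker, had 821 CPM in its PT-Cy cells and 866 CPM in its alloBMT cells. Dividing cells were not limited to it, since 29 of the 254 alloBMT cells with a Mki67 UMI lay in cluster 2. Cluster 4, with 31 PT-Cy and 34 alloBMT cells, held most of the regulatory T cell signal, with Foxp3 at 207 CPM in PT-Cy and 240.4 CPM in alloBMT.

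In cluster 2 Ccl5 had 1077 CPM in PT-Cy (1015 to 1141) and 3255 CPM in alloBMT (3002 to 3524), 3.02-fold lower (2.74 to 3.34). Ccl4 had 127 CPM in PT-Cy and 353 CPM in alloBMT, 2.78-fold lower (2.03 to 3.76). Ccl3 had 104 CPM in PT-Cy and 203 CPM in alloBMT, 1.95-fold lower (1.31 to 2.85), just short of the 2-fold needed for a call. In this cluster the differences were thus smaller than over all CD4 cells, and 2 of the 3 genes were called, where 1.76% of the 2846 genes measured in this cluster were called lower. Genes called higher there made up 3.97%. Xcl1 turned the other way, with 24 UMIs in PT-Cy and 9 in alloBMT, or 22.9 against 48.1 CPM and a log2 ratio of -1.07 (-2.23 to 0.22). All 7 UMIs of the single Xcl1-rich cell are in this alloBMT cluster, and without it the log2 ratio was 1.08 (-0.93 to 4.20), so its sign rested on 1 cell.

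In cluster 4 Ccl5 had 805 CPM in PT-Cy (663 to 967) and 3187 CPM in alloBMT (2886 to 3510), 3.96-fold lower (3.21 to 4.92). It was called, beside 4.22% of 498 genes called lower and 1.81% called higher in this cluster. Proliferation was not alike there, with Mki67 at 555 CPM in PT-Cy and 147 CPM in alloBMT, and its part in the Ccl5 ratio was not tested. Ccl3 and Ccl4 had 40 and 43 UMIs there over both libraries, too few for a call, with log2 ratios of -1.91 (-3.16 to -0.80) and -1.33 (-2.39 to -0.35). Xcl1 had 0 UMIs in cluster 4 of both libraries, which allows up to 26.3 CPM in PT-Cy and 28.6 CPM in alloBMT.

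Among alloBMT clusters Ccl3, Ccl4 and Ccl5 had their highest level in cluster 1, a cluster with 320 alloBMT and 0 PT-Cy cells. Ccl5 had 5733 CPM there, followed by clusters 3 (5305 CPM) and 0 (5291 CPM), which did not differ beyond their intervals, and by clusters 2 (3255 CPM) and 4 (3187 CPM), which also overlapped. Ccl4 had 795 CPM in cluster 1, 587 in cluster 3, 509 in cluster 0, 353 in cluster 2 and 233 in cluster 4; the intervals of clusters 3 and 0 overlapped, as did those of clusters 2 and 4. Ccl3 had 488 CPM in cluster 1, 318 in cluster 0, 310.3 in cluster 3, 240.4 in cluster 4 and 203 in cluster 2, and its interval in cluster 4 overlapped those of clusters 0, 3 and 2. In PT-Cy, Ccl5 was higher in cluster 2 (1077 CPM) than in cluster 4 (805 CPM) with intervals apart, whereas the intervals of Ccl3 and of Ccl4 overlapped between these clusters. The clusters were made by the authors from these same cells, so these orders are descriptions.

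The proportions among the 3 genes varied less than their levels. Per 100 Ccl5 UMIs there were 11.8 Ccl4 UMIs in PT-Cy cluster 2 and 11.5 in PT-Cy cluster 4, against 9.61, 13.9, 10.8, 11.1 and 7.30 in alloBMT clusters 0 to 4. Ccl3 UMIs per 100 Ccl5 UMIs were 9.67 and 7.96 in PT-Cy clusters 2 and 4, against 5.85 to 8.52 in the alloBMT clusters. Over the 7 groups of at least 30 cells, log2(CPM + 10) of Ccl3 and Ccl4 had a Pearson correlation of 0.96, of Ccl3 and Ccl5 0.97 and of Ccl4 and Ccl5 0.97, while Xcl1 had -0.13, -0.047 and -0.082 with Ccl3, Ccl4 and Ccl5. These groups come from 2 libraries that differ at all 3 genes, so the correlations describe these libraries.

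Of 4098 genes compared over the same 7 groups, the ones most like Ccl5 were Trps1, a GATA-type repressor (r = 0.99), Ipcef1 (0.99) and Pnpla8 (0.98). Those most like Ccl4 were Nfatc1, an NFAT factor activated by T cell receptor signals (0.99), Ostm1 (0.98) and Sh2d2a, an adaptor of T cell receptor signalling (0.98). Those most like Ccl3 were Stx5a, Lag3 and Nfatc1 (each 0.98), Lag3 being an inhibitory receptor of activated T cells. Trps1 had 382 CPM in PT-Cy and 1464 CPM in alloBMT, Nfatc1 256 against 599.7 CPM, and Lag3 34.0 against 262 CPM. Xcl1 had at most 24 UMIs in any group, and its nearest genes (Nasp, Eif4g2 and Clspn) were replaced by others with a pseudocount of 1. These lists depend on the measure of likeness: with Spearman correlation 0 of the 3 named genes remained for each chemokine, and with at least 1000 UMIs 1 remained for Ccl3, 1 for Ccl4 and 2 for Ccl5.

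**Figure D2:**
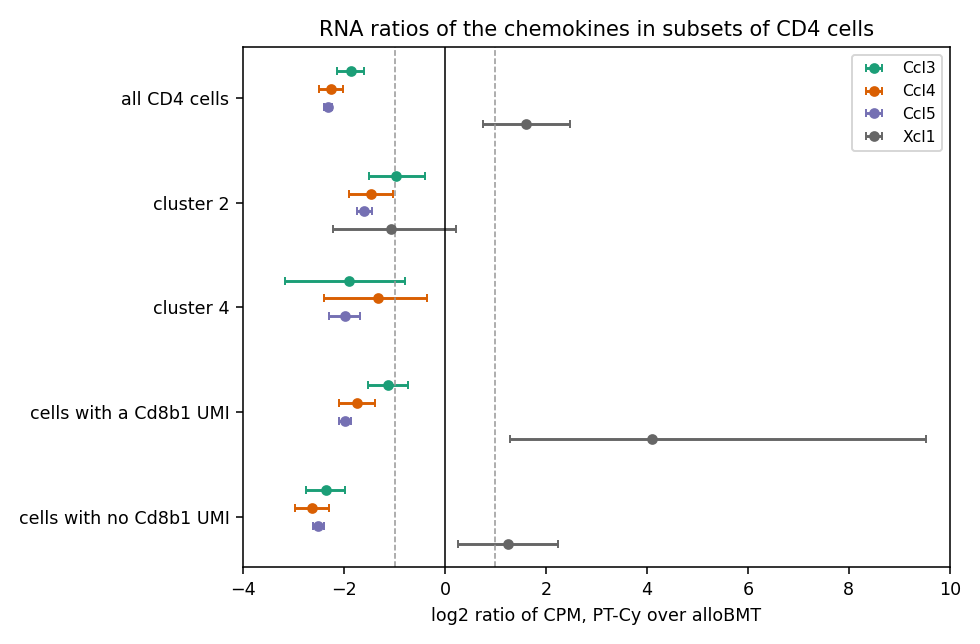
Log2 ratio of CPM, PT-Cy over alloBMT (horizontal axis), of the 4 chemokines in all CD4 cells, in clusters 2 and 4 and in cells with or without a Cd8b1 UMI, with exact 95% counting intervals. Dashed lines mark 2-fold. Ccl3, Ccl4 and Ccl5 lay below 0 in all 5 rows, and Xcl1 changed side in cluster 2.

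Depth per cell differed between the libraries, so each cell was also thinned to 1981 UMIs, which left out 25 PT-Cy and 96 alloBMT cells. At equal depth a Ccl5 UMI was found in 79.5% of PT-Cy cells (74.1 to 84.3) and 100% of alloBMT cells (99.6 to 100), with 2.06 against 10.7 Ccl5 UMIs per cell. Ccl4 was found in 19.3% of PT-Cy cells (14.7 to 24.6) and 51.8% of alloBMT cells (48.3 to 55.3). Ccl3 was found in 18.9% of PT-Cy cells (14.3 to 24.2) and 40.8% of alloBMT cells (37.5 to 44.3). Unthinned, the shares were 94.4% in PT-Cy against 100% in alloBMT for Ccl5, 34.2% against 62.2% for Ccl4 and 30.3% against 53.2% for Ccl3.

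Xcl1 was found in 3.86% of PT-Cy cells (1.87 to 6.99) and 0.964% of alloBMT cells (0.417 to 1.89) after thinning, and in 8.10% and 1.40% before it. Genes that T cells lack had shares of this size in the same cells: S100a9, a neutrophil protein, 6.56% of PT-Cy against 2.29% of alloBMT cells, and Lyz2, a lysozyme of myeloid cells, 3.47% against 0.723%. The Xcl1 share in PT-Cy was below that of S100a9 after thinning, as in alloBMT, so neither expression nor a difference is read from it; free Xcl1 RNA was not measured. Natural killer cells also transcribe Xcl1, and of their markers Klrb1c had 32 UMIs in PT-Cy against 1 in alloBMT and Ncr1 6 against 1. Klrk1, the marker with the most UMIs, stood the other way with 75 in PT-Cy and 313 in alloBMT (log2 ratio -0.80, -1.18 to -0.43). The 8 markers together summed to 119 CPM in PT-Cy and 118 CPM in alloBMT, with 2 and 1 of them at 0. The part of natural killer cells in the Xcl1 ratio was not tested.

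Hbb-bs, a globin of red cells, was found after thinning in 52.5% of PT-Cy and 20.4% of alloBMT cells, a share above those of Ccl3 and Ccl4 in PT-Cy. These background genes stood higher in PT-Cy, but they give no measure of free Ccl3, Ccl4 or Ccl5 RNA. No cells that should lack Ccl3, Ccl4 and Ccl5 are in the RNA table, so the free RNA of these genes in either library was not measured. In cells with no Hbb-bs UMI, 72 in PT-Cy and 649 in alloBMT, the log2 ratio was -2.57 for Ccl5, -2.001 for Ccl4 and -1.87 for Ccl3.

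The Ccl5 difference lay across the whole population of cells. At full depth the median cell had 985 CPM of Ccl5 in PT-Cy and 5037 CPM in alloBMT, and 0 of 284 PT-Cy cells were above the alloBMT median. The 90th percentile was 2118 CPM in PT-Cy cells, whereas the 10th percentile was 2293 CPM in alloBMT cells, and 264 of the 284 PT-Cy cells (93.0%) lay below that alloBMT value. The lowest alloBMT cell had 304 CPM. At equal depth 0 of 259 PT-Cy cells had 10 or more Ccl5 UMIs, while 354 alloBMT cells had 10 to 19 and 64 had more.

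The most in 1 cell was 8 Ccl4 UMIs in PT-Cy and 49 in alloBMT, and 6 Ccl3 UMIs in PT-Cy and 22 in alloBMT. At equal depth 0 PT-Cy cells had 5 or more Ccl4 UMIs, while in alloBMT 43 cells had 5 to 9 and 12 had 10 to 19.

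**Figure D3:**
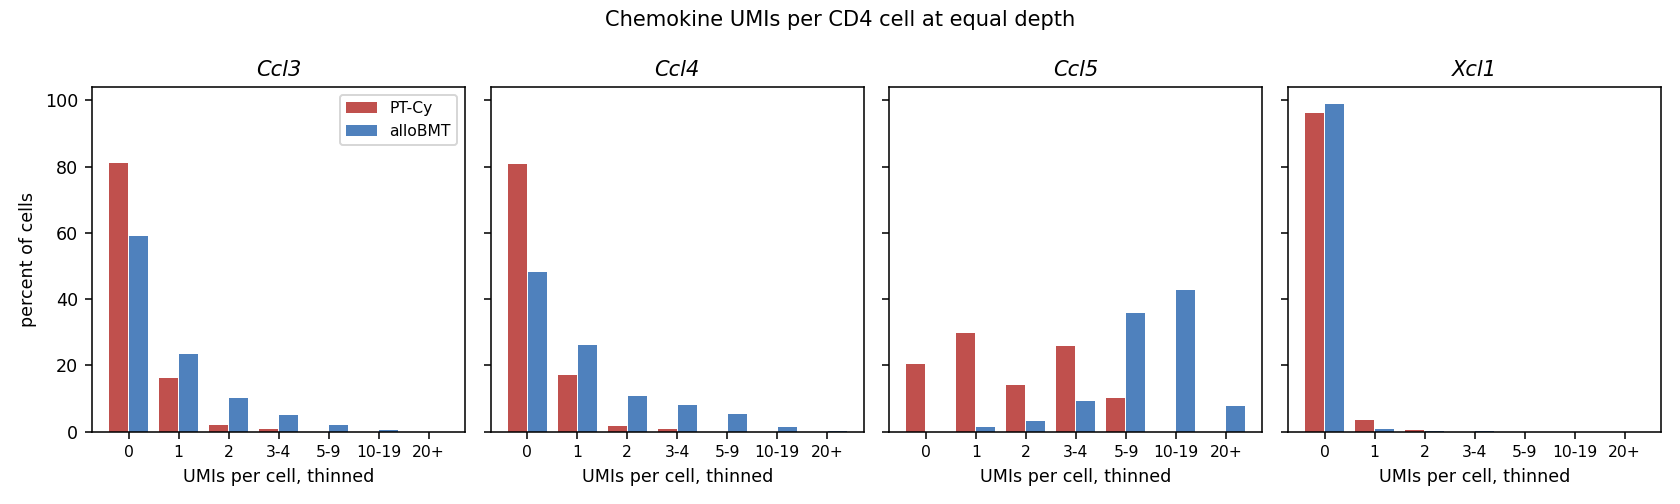
Percent of CD4 cells (vertical axis) by number of UMIs of each chemokine per cell (horizontal axis, in bins) after every cell was thinned to 1981 UMIs, for 259 PT-Cy cells (red) and 830 alloBMT cells (blue). The 2 Ccl5 distributions are shifted as a whole, with no PT-Cy cell at 10 or more UMIs. For Ccl3, 81.1% of PT-Cy and 59.2% of alloBMT cells are at 0, and for Ccl4 80.7% and 48.2%.

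Cells with a Ccl3 UMI had a Ccl4 UMI more often than cells without one. At full depth it was found in 53.5% of PT-Cy cells with a Ccl3 UMI (42.4 to 64.3) and 25.8% of those without (19.8 to 32.4), and in 71.4% (67.2 to 75.4) and 51.7% (46.9 to 56.5) of alloBMT cells. After thinning the intervals overlapped in PT-Cy and within alloBMT clusters 0 and 1, though not over all alloBMT cells. At that depth a Ccl4 UMI was found in 28.6% of PT-Cy cells with a Ccl3 UMI (16.6 to 43.3) and 17.1% of those without (12.3 to 22.9), and in 61.7% (56.2 to 66.9) and 45.0% (40.5 to 49.5) of alloBMT cells. Ccl4 had, at full depth, 218 CPM in PT-Cy cells with a Ccl3 UMI and 76.1 CPM in those without, a log2 ratio of 1.52 (1.04 to 1.999). The same split in alloBMT gave 779.6 and 365 CPM, a log2 ratio of 1.09 (0.94 to 1.25). Ccl5 followed this split less, at 1276 against 928 CPM in PT-Cy (log2 ratio 0.46, 0.30 to 0.62) and 5584 against 4770 CPM in alloBMT (0.23, 0.18 to 0.27). Cells with a Ccl3 UMI were deeper, with medians of 4386 against 3596 UMIs in PT-Cy and 2893 against 2672 in alloBMT, so these splits carry depth as well as expression.

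The second comparison splits the CD4 set by a UMI of Cd8b1, since CD8 T cells transcribe these chemokines too. In the 91 PT-Cy and 195 alloBMT cells with a Cd8b1 UMI the log2 ratio of PT-Cy over alloBMT was -1.98 for Ccl5 (-2.11 to -1.85), -1.74 for Ccl4 (-2.10 to -1.39) and -1.12 for Ccl3 (-1.53 to -0.73). In the 193 PT-Cy and 731 alloBMT cells without one it was -2.51 for Ccl5 (-2.62 to -2.41), -2.63 for Ccl4 (-2.97 to -2.30) and -2.35 for Ccl3 (-2.75 to -1.98). All 3 genes were called lower in the cells with no Cd8b1 UMI, where 3.83% of 5251 genes were called lower and 4.53% higher. For each of the 3 genes the interval without Cd8b1 lay below the interval with it.

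Within each library the split ran in opposite directions. PT-Cy cells with a Cd8b1 UMI had 148 CPM of Ccl3, against 75.7 CPM in PT-Cy cells without one (log2 ratio 0.97, 0.45 to 1.49). Ccl4 had 175 against 99.3 CPM (0.82, 0.35 to 1.28) and Ccl5 1255 against 937 CPM (0.42, 0.26 to 0.58) in the same PT-Cy cells. AlloBMT cells with a Cd8b1 UMI had 323 CPM of Ccl3, against 387 CPM in those without (-0.26, -0.47 to -0.057), 4950.5 against 5345 CPM of Ccl5 (-0.11, -0.16 to -0.058), and 583 against 614 CPM of Ccl4, an interval that spans 0 (-0.076, -0.23 to 0.078). In PT-Cy all 3 genes were thus higher beside Cd8b1, and in alloBMT Ccl3 and Ccl5 were slightly lower. Median depths with and without a Cd8b1 UMI were 4381 and 3414 UMIs in PT-Cy and 3118 and 2706 UMIs in alloBMT. Xcl1 had 10 UMIs in PT-Cy against 1 in alloBMT with Cd8b1, or 21.8 against 1.28 CPM. Without Cd8b1 it had 18 UMIs in PT-Cy against 21 in alloBMT, or 22.3 against 9.35 CPM. A cell with no Cd8b1 UMI can still be a CD8 cell at this depth, so the split does not purify. Free Cd8b1 RNA was not measured, so whether a Cd8b1 UMI marks a CD8 cell was not tested.

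Other genes of the chemokine system were read from lists chosen by function. Among receptors, Cd44, an adhesion receptor for hyaluronan, had 382 CPM in PT-Cy and 203 CPM in alloBMT, a log2 ratio of 0.91 (0.73 to 1.08) that fell short of a call. Xcr1, the receptor of Xcl1, had 2 UMIs in PT-Cy and 6 in alloBMT.

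Of 31 other chemokine genes, 30 were in the table and only Ccl25 had at least 100 UMIs, at 34.8 CPM in PT-Cy and 42.6 CPM in alloBMT (log2 ratio -0.29, -0.82 to 0.21). Cxcl10, an interferon-induced ligand of Cxcr3, had 45 UMIs in PT-Cy and 23 in alloBMT, a log2 ratio of 2.23 (1.47 to 3.02) below the count needed for a call. Ccl8 had 7 UMIs in PT-Cy and 14 in alloBMT, or 5.54 against 4.62 CPM. Of the 30 genes, 18 had no UMI in PT-Cy and 21 had none in alloBMT. All 30 together summed to 121 UMIs in PT-Cy and 181 in alloBMT, fewer than Ccl4 alone in each library. Scaled to the set, that was 95.7 CPM in PT-Cy against 59.8 CPM in alloBMT.

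Among 12 other secreted products of T cells, 6 had at least 100 UMIs. Of these 4 were called lower and 0 higher, beside 2.88% and 4.93% of all 6285 genes, with a median log2 ratio of -1.26 against 0.025 for all genes. Ifng, the gene of interferon gamma, had 75.9 CPM in PT-Cy and 215 CPM in alloBMT (log2 ratio -1.504, -1.83 to -1.19). Fasl, a death ligand, had -1.32 (-1.63 to -1.01), Csf1, the macrophage growth factor, -1.21 (-1.70 to -0.75), and Spp1, osteopontin, -1.68 (-2.64 to -0.84). Ltb, a lymphotoxin chain, stood the other way at 590.1 CPM in PT-Cy and 315 CPM in alloBMT (0.91, 0.77 to 1.05), and Il16 had 0.18 (-0.18 to 0.53). The 3 others with at least 20 UMIs, too sparse for a call, were Lta, a lymphotoxin (2.40, 1.26 to 3.64), Tnfsf14 (1.57, 0.57 to 2.58) and Tnf, the gene of tumour necrosis factor (1.06, 0.12 to 1.99), each with an interval above 0.

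Of 27 transcriptional regulators that act on effector genes, 25 had at least 100 UMIs, 4 were called lower and 2 higher, beside the same 2.88% and 4.93% of all genes, and their median log2 ratio was -0.14. Lower were Egr1, an immediate early factor (-1.66, -2.44 to -0.97), Eomes, a T-box factor of effector cells (-1.27, -1.62 to -0.94), Zeb2 (-1.23, -1.69 to -0.80) and Nfatc1 (-1.23, -1.40 to -1.06). Higher were the chromatin organiser Satb1 (2.08, 1.87 to 2.29) and Tcf7, a factor of stem-like T cells (1.79, 1.37 to 2.21). Tbx21, the other T-box factor, had 108 CPM in PT-Cy and 112 CPM in alloBMT (-0.051, -0.35 to 0.24). Runx3, a factor of cytotoxic T cells, had -0.90 (-1.09 to -0.71) and Runx1 had -0.040 (-0.13 to 0.048). Of the activation factors, Junb had -0.47 (-0.65 to -0.30), Nfkb1 0.24 (0.11 to 0.38) and Nfatc3 0.26 (0.10 to 0.41). Klf13, a factor known to bind the CCL5 promoter in human T cells, had 285 CPM in PT-Cy and 287 CPM in alloBMT (-0.011, -0.19 to 0.17).

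The third comparison asks whether chromatin near these genes differed in the same nuclei and in the CD8 set. Around Ccl3 and Ccl4 accessibility in CD4 cells was clearly lower in PT-Cy, around Ccl5 it was only slightly lower, and in CD8 cells both regions were close between the libraries. Summed over the 8 peaks near Ccl3 or Ccl4, the CD4 set had 142 counts in PT-Cy and 1402 in alloBMT, or 92.3 against 201 CPM of counts in peaks, a log2 ratio of -1.12 (-1.38 to -0.87). The CD8 set had 617 counts in PT-Cy and 3746 in alloBMT, or 198 against 226 CPM, a log2 ratio of -0.19 (-0.31 to -0.066). The CD4 ratio was lower than the CD8 ratio by a log2 difference of -0.93 (-1.21 to -0.66), which covers counting error only. TMM scaling moves the CD4 ratios by -0.20 and the CD8 ratios by -0.088.

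Near Ccl5 the 7 peaks summed to 180 counts in PT-Cy and 991 in alloBMT in the CD4 set, or 117 against 142 CPM, a log2 ratio of -0.28 (-0.52 to -0.050). In the CD8 set they summed to 178 CPM in PT-Cy and 179 CPM in alloBMT, a log2 ratio of -0.010 (-0.14 to 0.12). The difference between CD4 and CD8 was -0.27 (-0.53 to -0.0065). Ccl5 thus had the lowest RNA ratio of the 4 genes by point value and a much smaller difference in accessibility than Ccl3 and Ccl4. Near Xcl1 the 3 peaks had 21.4 CPM in PT-Cy and 16.5 CPM in alloBMT in CD4 cells (0.38, -0.23 to 0.95), and 21.2 against 24.3 CPM in CD8 cells (-0.20, -0.60 to 0.18), and neither ratio was separable from 0 at this depth.

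Seen the other way, CD8 chromatin was more open than CD4 chromatin near Ccl3 and Ccl4, and the gap was wider in PT-Cy. In PT-Cy the 8 peaks had 198 CPM in CD8 and 92.3 CPM in CD4 cells, a log2 ratio of 1.10 (0.84 to 1.37), against 226 and 201 CPM in alloBMT, a log2 ratio of 0.17 (0.077 to 0.26). Near Ccl5 the log2 ratio of CD8 over CD4 was 0.60 in PT-Cy (0.36 to 0.85) and 0.33 in alloBMT (0.23 to 0.44).

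Of the 18 peaks 15 had at least 100 counts over both libraries and sets. In the CD4 set 8 peaks had that many, of which 3 were called less open and 0 more open in PT-Cy, beside 3.82% and 0.751% of 19971 peaks over the genome. All 3 lie near Ccl3 and Ccl4. The calls at the edge depend on the counting and scaling. The peak chr11:83662055-83662769, inside the Ccl4 span, had 18 counts in PT-Cy and 247 in alloBMT, or 11.7 against 35.4 CPM (log2 ratio -1.60, -2.38 to -0.91). The peak chr11:83657125-83658291, also inside it, had 20 and 221 counts, or 13.0 CPM in PT-Cy against 31.7 CPM in alloBMT (-1.29, -2.03 to -0.62). The broad peak chr11:83638912-83641543, 6.3 kb from Ccl3, had 63 and 604 counts, or 40.9 CPM in PT-Cy against 86.6 CPM in alloBMT (-1.08, -1.48 to -0.70), and lost its call when each cell was counted once per peak (-0.96).

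The peak over the Ccl3 promoter shown above, chr11:83648188-83649915, fell just short of a call, with 27 counts in PT-Cy and 241 in alloBMT, or 17.5 against 34.6 CPM (-0.98, -1.61 to -0.40), and TMM scaling would call it (-1.17). Its counterpart in CD8 cells had 38.8 CPM in PT-Cy and 41.0 CPM in alloBMT (-0.080, -0.37 to 0.20). All 4 well-covered peaks of this region were thus lower in PT-Cy CD4 cells with intervals below 0. In CD8 cells the 5 peaks of this region with at least 100 counts had log2 ratios between -0.33 and -0.035. All 5 were thus below 0, 2 of them with intervals below 0, and none was called.

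Near Ccl5 the strongest peak, chr11:83534085-83535414, 3.57 kb from the gene, had 57.2 CPM in PT-Cy and 69.1 CPM in alloBMT CD4 cells (-0.27, -0.62 to 0.057). The peak over the boundary of the gene at 83530518, chr11:83530009-83530769, had 21.4 CPM in PT-Cy against 27.7 CPM in alloBMT (-0.37, -0.95 to 0.17). No promoter sequence was matched for Ccl5, so none of its peaks is named as the promoter here. The peak chr11:83536485-83537314 had 23.4 against 21.8 CPM (0.10, -0.46 to 0.63). None of the 3 was separable from 0 at this depth. The farther peak chr11:83538803-83539206 had 8 counts in PT-Cy and 77 in alloBMT CD4 cells (-1.09, -2.35 to -0.037), and in CD8 cells 20.2 against 19.5 CPM (0.050, -0.36 to 0.44). The narrow peak chr11:83527119-83527422 inside Ccl5 was the 1 peak of the 18 called in CD8 cells, where 13 had at least 100 counts, with 9 counts in PT-Cy and 97 in alloBMT (-1.02, -2.19 to -0.033). That call was lost when each cell was counted once per peak (-0.96). The same peak had 1 count in PT-Cy and 28 in alloBMT CD4 cells, a log2 ratio of -2.63 (-7.98 to -0.031) on too few counts for a call. In the CD8 set 3.27% of 35872 peaks were called less open and 1.01% more open. The remaining peaks inside or beside Ccl5, chr11:83523866-83524673 and chr11:83528043-83528289, had intervals that span 0 in both sets.

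The peak over the Xcl1 promoter shown above, chr1:164935278-164936316, had 22 counts in PT-Cy and 82 in alloBMT CD4 cells, or 14.3 against 11.8 CPM (0.28, -0.47 to 0.98). In CD8 cells it had 15.1 CPM in PT-Cy and 15.5 CPM in alloBMT (-0.038, -0.52 to 0.42). ATAC counts at this promoter were thus found in both lineages and both libraries, while its RNA was near the limit of detection in CD4 cells. The peak chr1:164945312-164946052, 9.79 kb from the gene, had 11 counts in PT-Cy and 112 in alloBMT CD8 cells (-0.93, -1.98 to -0.040), and TMM scaling would call it (-1.02). In CD4 cells that peak had 23 counts over both libraries.

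**Figure D4:**
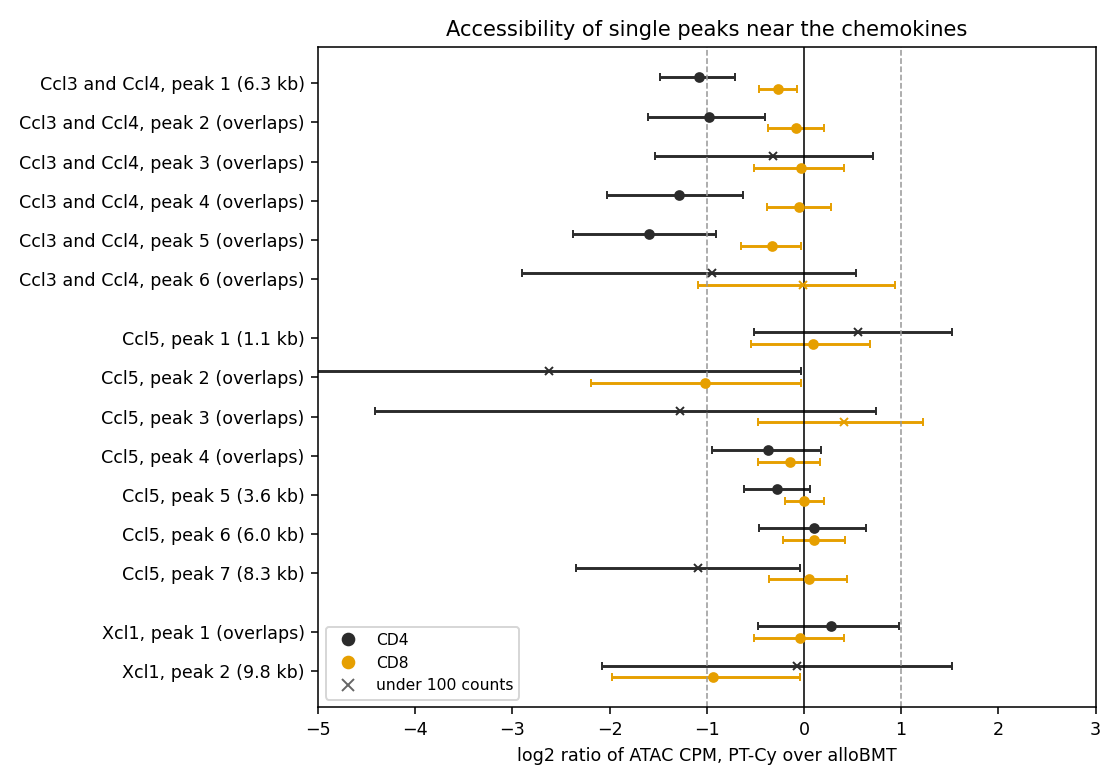
Log2 ratio of ATAC CPM, PT-Cy over alloBMT (horizontal axis), of the 15 peaks with at least 100 counts, in order of position within each region and with the distance to the nearest chemokine gene, for CD4 cells (black) and CD8 cells (orange). Bars are exact 95% counting intervals, crosses have under 100 counts in that set, and 1 bar runs past the left edge. The 4 CD4 values near Ccl3 and Ccl4 with at least 100 counts lie near or past the dashed 2-fold line, while the CD8 values of those peaks lie nearer to 0.

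The Ccl3 and Ccl4 region was also compared within the 2 CD4 clusters that both libraries share, and its interval lay below 0 in cluster 2 only. In CD4 cluster 2 its 8 peaks had 92.5 CPM in PT-Cy (76.9 to 110) and 202 CPM in alloBMT (163 to 248), a log2 ratio of -1.13 (-1.53 to -0.73). In CD4 cluster 4 they had 60.0 CPM in PT-Cy and 114 CPM in alloBMT from 9 and 37 counts (-0.93, -2.17 to 0.15). Near Ccl5 the log2 ratio was -0.16 in cluster 2 (-0.59 to 0.29) and 0.055 in cluster 4 (-1.02 to 1.06), so that within cluster 2 Ccl5 RNA differed 3.02-fold with no separable difference in accessibility.

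Over CD4 clusters the Ccl3 and Ccl4 region had 60.0 and 92.5 CPM in the 2 PT-Cy clusters with at least 20 cells, and 114 to 228 CPM in the 5 alloBMT clusters, where cluster 4 was the lowest. Over CD8 clusters it had 135 to 229 CPM in 4 PT-Cy clusters and 160 to 256 CPM in 8 alloBMT clusters, ranges that overlap. CD8 cluster 2, with 170 PT-Cy and 139 alloBMT cells, had 229 CPM in PT-Cy and 241 CPM in alloBMT (-0.074, -0.28 to 0.13). Cluster 6 had 148 CPM in PT-Cy and 159.9 CPM in alloBMT, where it was the lowest CD8 cluster. For Xcl1 the same CD8 cluster 6 stood at the high end, with 35.2 CPM in PT-Cy (23.0 to 51.6) and 35.7 CPM in alloBMT (23.5 to 51.9), against a median of 21.9 over PT-Cy and 18.96 CPM over alloBMT CD8 clusters. AlloBMT CD8 cluster 0 had a similar 34.1 CPM (29.4 to 39.4). In 1 cluster, CD8 cluster 1 with 23 PT-Cy and 357 alloBMT cells, the Ccl3 and Ccl4 region was lower in PT-Cy with an interval below 0 (-0.92, -1.99 to -0.017), from 10 PT-Cy counts.

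**Figure D5:**
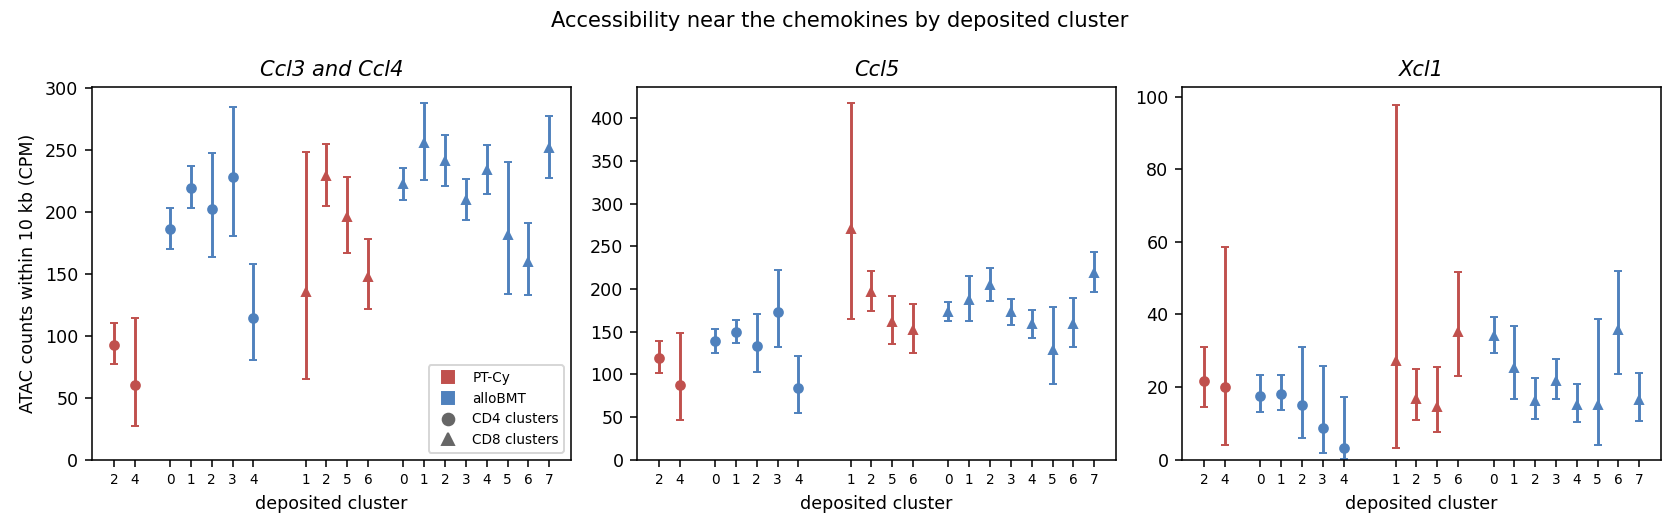
ATAC counts within 10 kb of the genes in CPM (vertical axis, from 0) in each deposited cluster with at least 20 cells, PT-Cy in red and alloBMT in blue, CD4 clusters as circles and CD8 clusters as triangles, with exact 95% Poisson intervals. Near Ccl3 and Ccl4 both PT-Cy CD4 clusters lie below every alloBMT CD4 cluster, while PT-Cy and alloBMT CD8 clusters overlap.

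Because both assays read the same nuclei, accessibility was compared between cells with and without RNA of Ccl3 or of Ccl4. Ccl5 and Xcl1 were left out, with too few cells on 1 side of the split. Ccl5 had a UMI in 268 of 284 PT-Cy and 926 of 926 alloBMT cells, and Xcl1 in 23 PT-Cy and 13 alloBMT cells. In PT-Cy, cells with a Ccl4 UMI had 129 CPM at the 8 Ccl4 peaks, and cells without one had 69.04 CPM (log2 ratio 0.90, 0.41 to 1.40). In alloBMT the same split gave 213 and 178 CPM (0.26, 0.091 to 0.43). For Ccl3, with its 4 peaks, PT-Cy cells with a UMI had 98.0 CPM and those without had 66.1 CPM (0.57, 0.017 to 1.11), and alloBMT cells had 168 and 149 CPM (0.17, -0.0062 to 0.35). Within PT-Cy cluster 2 the log2 ratios were 0.94 for Ccl4 (0.41 to 1.48) and 0.63 for Ccl3 (0.042 to 1.20). Within alloBMT cluster 1 they were 0.037 for Ccl4 (-0.23 to 0.31) and 0.034 for Ccl3 (-0.23 to 0.31), and within alloBMT cluster 0 they were 0.32 for Ccl4 (0.058 to 0.59) and 0.17 for Ccl3 (-0.12 to 0.46). Within alloBMT cluster 3 they were 0.37 for Ccl4 (-0.32 to 1.07) and 0.78 for Ccl3 (0.0032 to 1.59). Cells with a UMI were the deeper ones in RNA, with medians of 4464 against 3414 UMIs for Ccl4 in PT-Cy and 2846 against 2641 UMIs in alloBMT. In PT-Cy, Ccl4 RNA was also higher in cells with a Cd8b1 UMI and the CD8 set had the more open locus. The part of CD8 cells in this difference was not tested.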

How the data were processed

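The members and gene lists were chosen with earlier results of these data known. RNA and ATAC were read by the authors from the same nuclei, in 4 libraries grouped by their labels. The RNA and ATAC tables deposited by the authors hold raw counts (whole numbers for each cell, by gene or by peak), as their values show. Cell Ranger ARC 1.0.1 and MACS2 are named in the submitters' processing notes, where the build is given as GRCh38, a human build; gene names are mouse, and 31.2% of 43774 ends of protein-coding genes of GRCm38.p6 lay in a deposited peak, against 6.16% to 6.89% for ends shifted by 2000 to 200000 bases. For MACS2 no version is given in the sources used here, nor are the filter on cells and the handling of doublets; no doublet caller was run. Cells' library, set and cluster come from the deposited per-cell table, of whose 58 columns 55 were not used. The libraries shared 0 cell barcodes in RNA and 2 in ATAC.

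Counts were summed per library and set or cluster and scaled to CPM. Ratios are PT-Cy over alloBMT with exact conditional binomial (Clopper-Pearson) 95% intervals, CPM with exact Poisson and shares with exact binomial ones. The difference between the CD4 and CD8 log2 ratios has a normal interval on the log scale. UMIs from PCR-amplified libraries are counted once; ATAC counts carry no such identifier. Thinning drew UMIs without replacement to the 10th percentile of the CD4 set. Genes most like a member were the 3 with the highest Pearson correlation, among genes with at least 200 UMIs outside receptor segments and predicted genes. List genes were named by most UMIs, up to 6 a list with at least 20. Xcr1, Egr1, Eomes, Zeb2, Satb1, Tcf7, Tbx21, Klf13, Klrb1c, Ncr1, Klrk1, Lta, Tnfsf14 and Tnf were named beyond that after their values were seen. The computation was tested on simulated counts. Scaling alternatives came from edgeR 4.0.16 and DESeq2 1.42.0, in R 4.3.3; Python 3.11.15, numpy 2.4.6, scipy 1.17.1 and pandas 2.3.3 were used. The plan to compare proteins was not run, since no protein sequences were used here.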

Additional observations from a re-analysis of the deposited data

How the results depend on the processing

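The direction of the Ccl3, Ccl4 and Ccl5 RNA ratios was the same under all alternatives run, and 232 of the 279 recomputed values moved by less than their counting interval or, for counts, by less than 1.5 times. Of the main results 96 values stayed within this limit and 37 moved past it. For single peaks and gene lists, where sparse peaks have wide intervals, 136 stayed and 10 moved. With edgeR TMM factors the Ccl5 log2 ratio was -2.45 and with DESeq2 size factors -2.46. Cells with no Cd8b1 UMI gave -2.35 for Ccl3, -2.63 for Ccl4 and -2.51 for Ccl5, and -1.43 for ATAC near Ccl4. Cells with no UMI of 5 proliferation genes (17 PT-Cy and 402 alloBMT cells) gave wide intervals for all but Ccl5. They were -4.38 for Ccl3 (-9.69 to -1.89), -1.94 for Ccl4 (-3.08 to -1.01) and -2.58 for Ccl5 (-2.999 to -2.20). Xcl1 had 0.50 in these cells (-4.90 to 3.22). Cells with no UMI of other blood cell markers gave -2.37 for Ccl3 and -2.44 for Ccl5. Within cluster 2 the values were -0.96, -1.47, -1.60 and, for Xcl1, -1.07; within cluster 4 they were -1.33 for Ccl4 and -1.99 for Ccl5; without cluster 2 Ccl5 had -2.52. In cells with no Hbb-bs UMI, chosen after seeing the data like the set without the Xcl1-rich cell, Ccl4 had -2.001 and Ccl5 -2.57, and thinning gave -2.51 for Ccl4. Thinned to the 25th percentile of UMIs, 44.4% of alloBMT cells had a Ccl3 UMI, and to the 5th percentile 47.9% had a Ccl4 UMI. A minimum of 20 counts gave 912 genes higher and 474 lower, and at least 1 count in each library 2515 and 840. For peaks a minimum of 20 counts gave 3603 more and 5931 less open in CD4 cells, and 4565 and 7853 in CD8 cells. Counting each cell once per peak gave 67 (CD4) and 204 (CD8) more open, and TMM factors 62 more and 1222 less open in CD4 cells and 235 more open in CD8 cells. The split of genes moved from 310 higher and 181 lower to 234 and 260 with TMM. The causes were not tested. No paired analysis was possible because each group has 1 library per assay.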

Other observations

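A few PT-Cy cells lay in clusters made mostly of alloBMT cells. The 4 PT-Cy cells of CD4 cluster 0 had 1673 CPM of Ccl5 (1137 to 2375), against 5291 CPM in the 374 alloBMT cells of that cluster, and the 11 PT-Cy cells of cluster 3 had 1010 CPM (769 to 1303), against 5305 CPM in its 156 alloBMT cells. Ccl5 in these PT-Cy cells was thus nearer to the other PT-Cy cells than to the alloBMT cells of their own cluster. Xcl1 in cluster 3 had 3 UMIs in PT-Cy, all in 1 cell, and 1 UMI in alloBMT.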
